A study of Mus musculus with 10 samples.

Results

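Ion channel genes were followed through the splicing and read coverage of cultured mouse cells. The set holds every gene whose symbol belongs to the potassium channel names (Kcn), the voltage-gated calcium channel names (Cacna, Cacnb, Cacng) or the voltage-gated sodium channel names (Scn followed by a number and a or b). It came to 134 genes of 26264 and to 4504 splicing events of 661162. Of the 134 genes, 4 are antisense or opposite-strand transcripts that carry a channel symbol (Kcnab3os, Kcnd3os, Kcnmb4os1 and Kcnmb4os2), and Kcnrg is a channel regulator rather than a channel.

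Voltage-gated channels open and close with the membrane potential and set the firing of neurons, the shape of action potentials and calcium entry at synapses. Their large pore subunits (Cacna1, Scna and the Kv genes) are joined by auxiliary subunits that set trafficking and gating, among them the calcium channel beta subunits (Cacnb), the gamma and alpha2delta subunits, the sodium channel beta subunits (Scnb) and the Kcnab, Kcne, Kcnip and Kcnmb proteins. In the nervous system these genes are spliced extensively, in part through microexons, which are very short exons used mostly in neurons. Qk encodes Quaking, an RNA-binding protein that recognises ACTAAY in RNA (Y is C or T) and that can favour or prevent the use of nearby exons.

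N2A is a mouse neuroblastoma line. Its cells were transfected with 40 nM siRNA, either a pool directed at Qk (siQk, n = 3) or a pool without a target (siNT, n = 3), and polyadenylated RNA was taken 72 h later. The second system was glutamatergic neurons derived in culture from mouse embryonic stem cells. On day 7 they received cycloheximide, an inhibitor of translation, at 100 uM for 12 h (n = 2) or no drug (n = 2). Each N2A arm is 1 transformed line and the neurons were made in vitro, so neither is brain tissue. The labels call the replicates biological but do not say what set them apart, so the p-values measure only the spread between these samples.

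Coverage is given in CPM, the reads over exon events scaled to the total of the sample. The N2A samples held 26595944 to 80481173 reads over exon events, with the fewest in siQk replicates 1 and 2. Qk itself stood at 90.8, 82.8 and 82.5 CPM in siNT and at 8.17, 12.3 and 13.0 CPM in siQk, so 13.1% of the mean was left (log2 fold change -2.91, SE 0.16, limma adjusted p = 0.000300). Of 8 neuronal and neuroblastoma markers, 7 had exon events and all 7 reached 1 CPM, Th and Dbh of catecholamine synthesis among them. Their summed level was 1331 to 1371 CPM in siNT and 1548 to 1646 CPM in siQk. Glial markers summed to 3.35 to 5.12 CPM over all 6 samples, with Aqp4 and Mog at 0, fibroblast markers to 1.29 to 3.35 CPM, and pluripotency markers to at most 0.0592 CPM. The neuron files used here hold microexon values only, so the identity of those cells was not checked against markers.

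The calcium channel beta subunits share a short exon, and the results turn on it. Beta subunits are intracellular proteins that bind the pore and consist of a pair of conserved domains joined by a variable linker, the HOOK region, within which this exon lies. In Cacnb1 the alternatives at this place are known to differ between the skeletal muscle form, which carries a long exon, and the neuronal form, which carries the short exon. The 20 nt exons of the 4 paralogs, from GENCODE M21 transcripts on mm10, read as follows, with capitals where a base differs from Cacnb1.
Cacnb1: ccaaacagaagcagaaatcg
Cacnb2: cAaaGcagaagcagaaGtcg
Cacnb3: ccaaGcagaagcaAaaGCAg
Cacnb4: cAaaacagaagcagaaaGTg
The Cacnb1 exon had 17 of 20 bases in common with that of Cacnb2, 15 with that of Cacnb3 and 17 with that of Cacnb4.

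The Cacnb1 exon lies at chr11:98010627-98010646 on the minus strand (mm10) and is coding in 2 annotated transcripts. With 20 nt of each neighbouring exon in small letters and the exon itself in capitals, its spliced sequence shows where it joins the message.
Cacnb1 short exon in context: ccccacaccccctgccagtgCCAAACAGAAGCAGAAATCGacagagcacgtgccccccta
The long exon lies 696 bases upstream of it in the direction of transcription, at chr11:98011343-98011497 on the minus strand. It has 155 nt and is coding in 3 transcripts. Capitals mark the hexamer ACTAAC, at bases 12 to 17 counted from the 5′ end of the exon.
Cacnb1 long exon: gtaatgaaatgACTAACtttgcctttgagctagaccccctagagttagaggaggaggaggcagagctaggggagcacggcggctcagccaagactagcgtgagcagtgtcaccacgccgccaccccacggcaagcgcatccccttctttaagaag
The lengths of the exons differ by 135 nt, a multiple of 3, so that exchanging one for the other keeps the reading frame downstream. Together they come to 175 nt, which is no multiple of 3.

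Loss of Qk was accompanied by a switch between these Cacnb1 exons in N2A cells, towards the short exon. Use of an event is given as percent spliced in (PSI), the part of the transcripts that holds the exon or intron. The short exon stood at 73.2%, 84.0% and 81.5% in siNT and at 100.0%, 100.0% and 97.6% in siQk. Every siQk sample lay above every siNT sample, with 41 to 129 reads behind each value. The mean rose from 79.6% ± 5.69 to 99.2% ± 1.38 (SD, n = 3 each), by 19.6 points (limma adjusted p = 0.0184).

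The long exon moved the other way. Its PSI was 16.2%, 15.9% and 14.7% in siNT and 0.59%, 0.54% and 1.90% in siQk, from 71 to 224 reads. The siNT samples were close to one another and the siQk samples close to 0. The mean fell by 14.6 points, from 15.6% ± 0.819 to 1.01% ± 0.771 (SD, n = 3 each; limma adjusted p = 0.00705). Both calls were lost when any 1 siNT sample was left out, with adjusted p = 0.0894 to 0.122 for the short exon and 0.0531 to 0.0609 for the long exon, although the differences stayed at 16.4 to 21.9 and -15.1 to -14.3 points.

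Retention of the introns on both sides of the short exon also fell. The 1219 nt intron upstream of it (chr11:98010647-98011865), inside which the long exon lies, was retained at 18.9%, 13.9% and 13.5% in siNT and at 0.56%, 1.95% and 3.68% in siQk. The mean difference was -13.4 points (limma adjusted p = 0.000134). The 250 nt intron downstream (chr11:98010377-98010626) was retained at 29.2%, 18.9% and 11.7% in siNT and at 6.52%, 3.37% and 2.96% in siQk. The groups did not overlap at either intron, and the second difference was -15.6 points (limma adjusted p = 0.00147). Reads inside the long exon or at the ends of the short exon bear on both kinds of event, so these 4 calls are not independent. Neither intron passed when PSI itself was tested in place of the log ratio of reads (adjusted p = 0.392 and 0.919), and the 250 nt intron did not pass without siNT replicate 1 (adjusted p = 0.0790).

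The next intron downstream, of 379 nt, was retained at 11.6% ± 0.84 in siNT and 5.01% ± 2.04 in siQk (SD, n = 3 each), which did not pass (limma adjusted p = 0.687). The 77 nt exon between these introns stood at 90.2% ± 1.59 in siNT and 93.6% ± 1.27 in siQk (SD, n = 3 each), a difference of 3.32 points that did not pass either (limma adjusted p = 0.665). The groups did not overlap at this intron or at this exon. The called events of Cacnb1 were those that touch the alternative short and long exons, and whether the lower retention was confined to them was not tested.

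**Figure D1:**
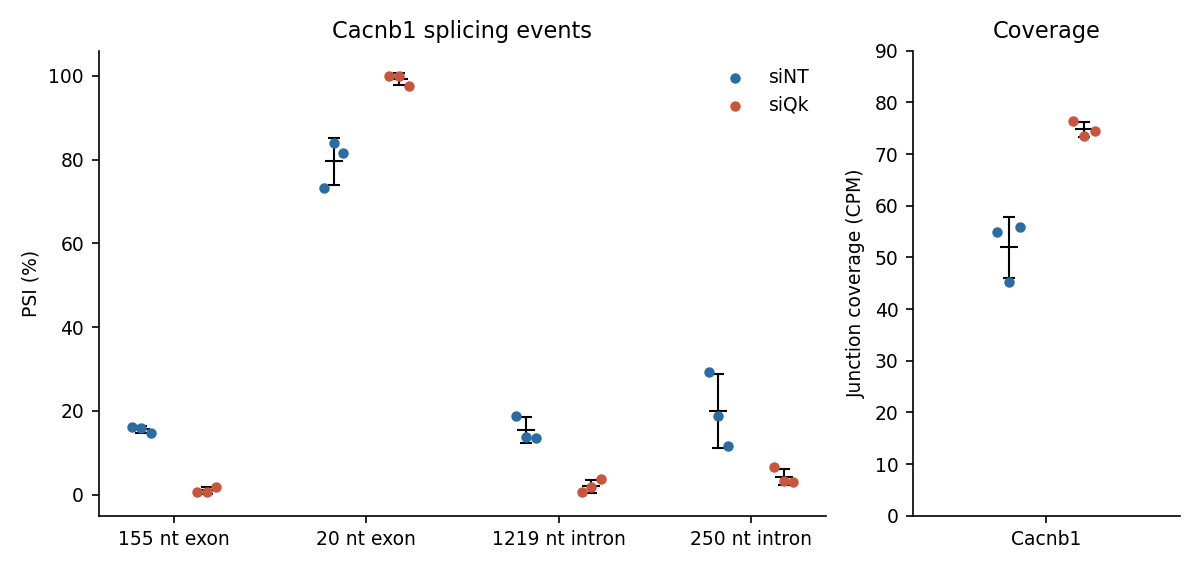
Percent spliced in of the 4 called Cacnb1 events (left) and junction coverage of Cacnb1 in CPM (right), in N2A cells with siNT (blue) or siQk (red). Points are samples (n = 3 each), and bars show the mean ± SD. The short exon lies at 97.6% or above in siQk while the long exon and both introns lie lower than in every siNT sample.

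Coverage of Cacnb1 rose as well. Reads over its 14 exon events came to 55.0, 45.2 and 55.8 CPM in siNT and to 76.4, 73.5 and 74.4 CPM in siQk, without overlap. The ratio of the means was 1.44 (log2 fold change 0.53, SE 0.10, limma adjusted p = 0.0261). Over the 10 exon events outside the region between the neighbours of the switched exons, the log2 fold change was 0.54 (adjusted p = 0.0280), so the difference was as large without the switched exons. The call was lost without any 1 siNT sample and without siQk replicate 2 or 3 (adjusted p = 0.0501 to 0.123). In bulk samples, fewer cells of a type and less RNA per cell cannot be told apart. The neuroblastoma marker Chga, a granin of secretory granules, rose beside it from 264 ± 8.24 to 365 ± 23.4 CPM (SD, n = 3 each; limma adjusted p = 0.0152), and the part of the marker levels in the Cacnb1 result was not tested.

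The authors' deposited list of neural microexons holds 3 channel exons. In that list the Cacnb1 exon stood at 79.3% in siNT and 98.2% in siQk, was classed as repressed by Qk, and had an ACTAAY motif on its upstream side. Of all members of the authors' deposited list, 18.1% were classed as repressed and 11.9% had the motif upstream. These are values from the same libraries and no independent evidence. The long Cacnb1 exon, which holds ACTAAC, also lies upstream of the short exon, but how far from the exon the authors searched is not known here.

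The authors' deposited table gave the Cacnb3 exon 97.8% in siNT and 98.4% in siQk, with no ACTAAY motif and no change by its class. The reads of the event table, 37 to 140 a sample, put it at 98.2%, 100.0% and 98.0% in siNT and at 100.0%, 100.0% and 99.1% in siQk. It was included in nearly all transcripts already with Qk present. The third channel exon of the list is a 9 nt exon of Kcnn2, a small-conductance potassium channel opened by calcium. It had 1.33% in siNT and 1.53% in siQk in the authors' deposited table, and 0 of 311 reads over all 6 samples in the event table, which allows a share of up to 0.965% (counting error only).

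Among the channel genes, the exons that passed were those of Cacnb1. Of 1541 cassette exons listed in 115 channel genes, 438 in 36 genes had at least 10 reads in every sample. Of these, 334 had a mean PSI over 98% and 39 had one under 2%, so that 65 exons in 23 genes were tested. The pair in Cacnb1 passed, which is 3.08% of the channel exons beside 1.18% of the 12930 cassette exons tested in all genes. In each direction it is 1 exon, beside 0.750% of all exons that rose and 0.425% that fell. Before adjustment, 7 of the 65 (10.8%) had p under 0.05, beside 9.04% of all exons. The median absolute difference was 2.70 points in channel exons and 1.82 points in all exons, and 9 channel exons (13.8%) differed by at least 10 points, beside 5.51% of all exons. These 9 lie in Cacnb1, Cacna1c, Cacna1g, Scn2a and Scn8a, and those that share a gene are not independent. Those of Cacna1g, Scn2a and Scn8a had only 12 to 16 reads in their lowest samples. Whether channel exons differ more than other exons was not tested.

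Introns gave 79 tested events in 23 channel genes, of which the pair in Cacnb1 passed, both lower (2.53%, beside 0.113% of all 17664 introns). Alternative 3′ splice sites gave 41 tested events and none passed with limma, where 0.101% of all sites did. Before adjustment, 4 had a limma p under 0.05 (9.76%, beside 4.85% of all). These 4 were a mirrored pair of sites in Scn8a and another in Kcnip3, and the sites of a pair are not independent. Alternative 5′ splice sites gave 25 tested events, and none passed or had an unadjusted p under 0.05, where 0.107% and 5.13% of all sites did. The widest difference at a 3′ site was in Kcnip3, an auxiliary subunit of Kv4 channels, whose inner site stood at 9.18%, 14.6% and 19.3% in siNT and at 38.3%, 21.5% and 22.5% in siQk (13.1 points, limma adjusted p = 0.992). The Kcnip3 site was picked after its values were seen.

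By subunit role, the tested exons were 22 in 4 calcium pore genes, 15 in 4 sodium pore genes, 10 in 4 Kv genes, 6 in 2 calcium beta genes, 5 in 3 potassium auxiliary genes, 4 in 3 potassium genes gated by calcium or sodium, 2 in 2 gamma genes and 1 in a Kir gene. Median differences by role ran from -1.45 points in sodium pores to 3.83 points in potassium auxiliaries. No exon of the K2P leak channels, the alpha2delta subunits or the sodium beta subunits could be tested.

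In the calcium pores, the largest difference was in Cacna1g, which encodes the T-type channel Cav3.1. Its 30 nt exon at chr11:94416626-94416655 (minus strand) is annotated in 1 non-coding transcript and is shown in capitals between 10 nt of each neighbour.
Cacna1g exon: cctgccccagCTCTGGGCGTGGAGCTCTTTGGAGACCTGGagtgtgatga
It stood at 73.9%, 68.7% and 85.8% in siNT and at 100.0%, 89.2% and 100.0% in siQk, with 16 to 48 reads a sample. The siQk values lay above all siNT values, by 20.3 points on average, and the test did not pass (limma adjusted p = 0.303). This exon also has alternative 3′ splice sites. The site that gives the 30 nt form was used at a mean of 1.43% in siNT and 5.69% in siQk. The site that adds 49 nt at the 5′ end was used at 98.6% and 94.3%. By these values most of the inclusion in N2A cells was of the longer form. The PSI of the exon therefore cannot be read as use of the 30 nt form.

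Cacna1c, the L-type pore Cav1.2, has a mutually exclusive pair of 60 nt coding exons. They are given in gene order, with capitals where they differ, since their reads have to be told apart by these bases. They had 35 of 60 bases in common.
Cacna1c first exon (chr6:118674555-118674614, minus strand): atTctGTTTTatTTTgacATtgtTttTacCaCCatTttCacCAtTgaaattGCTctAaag
Cacna1c second exon (chr6:118674346-118674405, minus strand): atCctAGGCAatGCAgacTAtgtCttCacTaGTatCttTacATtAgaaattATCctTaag
The first exon stood at 30.7%, 28.2% and 38.4% in siNT and at 11.8%, 19.1% and 19.0% in siQk. The second stood at 83.7%, 85.0% and 76.9% in siNT and at 97.1%, 92.3% and 98.2% in siQk. Neither pair of groups overlapped, and the directions were opposite (-15.8 and 14.0 points). Neither passed (limma adjusted p = 0.433 and 0.150). The exons are events of 1 choice and so not independent. A further Cacna1c exon of 84 nt, at 44.9% ± 9.62 in siNT and 54.0% ± 8.85 in siQk (SD, n = 3 each), had overlapping groups (limma adjusted p = 0.795).

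In the sodium pores, which carry the rising phase of the action potential, 3 exons of Scn2a, 1 of Scn8a and 1 of Scn9a were among the 12 largest differences. The Scn2a exons of 138, 267 and 105 nt were each at 100.0% in siNT replicates 1 and 2 and lower in siNT replicate 3, at 85.1%, 77.1% and 88.0%. In siQk they ran from 70.1% to 90.7%, from 76.9% to 84.2% and from 77.6% to 90.3%, so the groups overlapped at all 3. The mean differences were -13.2, -11.1 and -10.7 points (limma adjusted p = 0.578, 0.646 and 0.540), on as few as 12 reads a sample. The Scn8a exon of 68 nt, annotated in 1 non-coding transcript, stood at 86.2%, 82.1% and 79.9% in siNT and at 65.8%, 76.7% and 70.8% in siQk (-11.6 points, limma adjusted p = 0.663). The coding 92 nt exon of Scn9a, the Nav1.7 channel of sensory and sympathetic neurons, was at 85.3% ± 3.13 in siNT and 92.7% ± 4.11 in siQk (SD, n = 3 each; limma adjusted p = 0.611). None of these sodium channel differences passed.

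**Figure D2:**
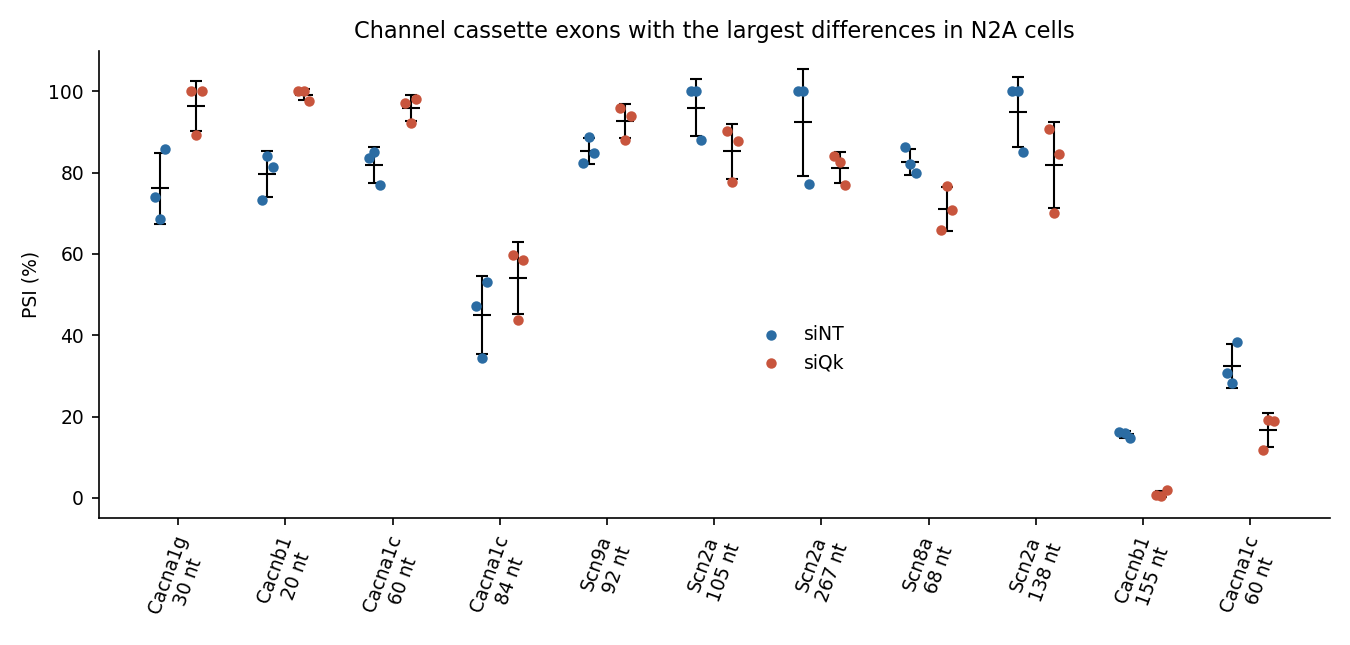
Percent spliced in of 11 of the 12 tested channel cassette exons with the largest differences between siNT (blue) and siQk (red) N2A cells, ordered by the difference. Points are samples (n = 3 each), and bars show the mean ± SD, which can pass 100%. Of the 11 drawn, only the Cacnb1 exons of 20 nt and 155 nt passed the test.

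Microexons of the channel genes were mostly out of reach in N2A cells. Of 50 listed microexons (3 to 27 nt) in 31 genes, 27 had a PSI in any sample and 11 had at least 10 reads in every sample. Of the 11, 7 had a mean PSI under 2%, 6 of them at 0 in every sample, and 2 had one over 98%. This left 2 tested microexons, the Cacnb1 exon, which passed, and a 6 nt exon of Cacna1b, beside 7.32% passing among the 410 microexons of all genes.

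The widest difference of any channel microexon was outside the test. Kcnq5 encodes Kv7.5, a subunit of the M-current that damps repetitive firing, and its coding 27 nt exon lies at chr1:21466383-21466409 (minus strand). It is shown in capitals between 10 nt of each neighbour.
Kcnq5 exon: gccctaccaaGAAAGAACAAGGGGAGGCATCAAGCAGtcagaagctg
The exon stood at 26.1%, 23.8% and 23.1% in siNT, and at 59.1%, 84.3% and 55.5% in siQk. All siQk samples lay above all siNT samples, but siQk replicate 2 had only 7 reads, of which 6 were inclusion reads (Wilson 95% interval 48.7% to 97.4%). The other samples had 21 to 40 reads. With the minimum lowered to 5 reads, a choice made after the values were seen, the difference was 42.0 points and did not pass over all exons (limma adjusted p = 0.121). Without siQk replicate 2 it was 33.0 points (limma adjusted p = 0.249).

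Cacna1b, the N-type pore Cav2.2 of presynaptic terminals, has a pair of microexons whose use differs by neuron type. In rat, the form with the 12 nt exon is not the main one in sympathetic neurons, while the 6 nt exon is used more there than in brain. Both are coding and are printed in capitals between 10 nt of each neighbour.
Cacna1b longer microexon (chr2:24656711-24656722, minus strand): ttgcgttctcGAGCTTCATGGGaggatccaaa
Cacna1b shorter microexon (chr2:24642853-24642858, minus strand): agagatagcgGAAACGaacaacttca
In N2A cells the 6 nt exon stood at 96.7%, 96.4% and 95% in siNT and at 100.0%, 95% and 95.5% in siQk, a difference of 0.817 points (limma adjusted p = 0.879). The 12 nt exon had 0 of 228 reads over the 3 siNT samples, which allows a share of up to 1.32% (counting error only). In siQk it was at 0, 10.6% and 0, from 4 of 36 reads in replicate 2. N2A cells used the 6 nt exon with either siRNA, and the 12 nt exon had inclusion reads in siQk replicate 2 alone.

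In untreated neurons the order was the other way round. In the authors' deposited table the 12 nt exon stood at 94.6% and the 6 nt exon at 1.15%. The authors derived the tables by different routes, and cell type and table cannot be told apart here, so the values stand side by side with no test. The same holds for the other exons read in both. The 20 nt Cacnb1 exon was at 97.4% in untreated neurons by the authors' deposited table and at 79.6% on average in siNT cells. For the 27 nt Kcnq5 exon these values were 89.3% and 24.3%, and for the 30 nt Cacna1g exon 10.6% and 76.1%. In siNT cells the splice site that adds 49 nt to the Cacna1g exon was used at 98.6%. The N2A value of Cacna1g is therefore mostly of the longer form, and its 2 values may not count the same exon. The 27 nt exon of Cacna1c was at 99.2% in neurons and 100.0% in every N2A sample.

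**Figure D3:**
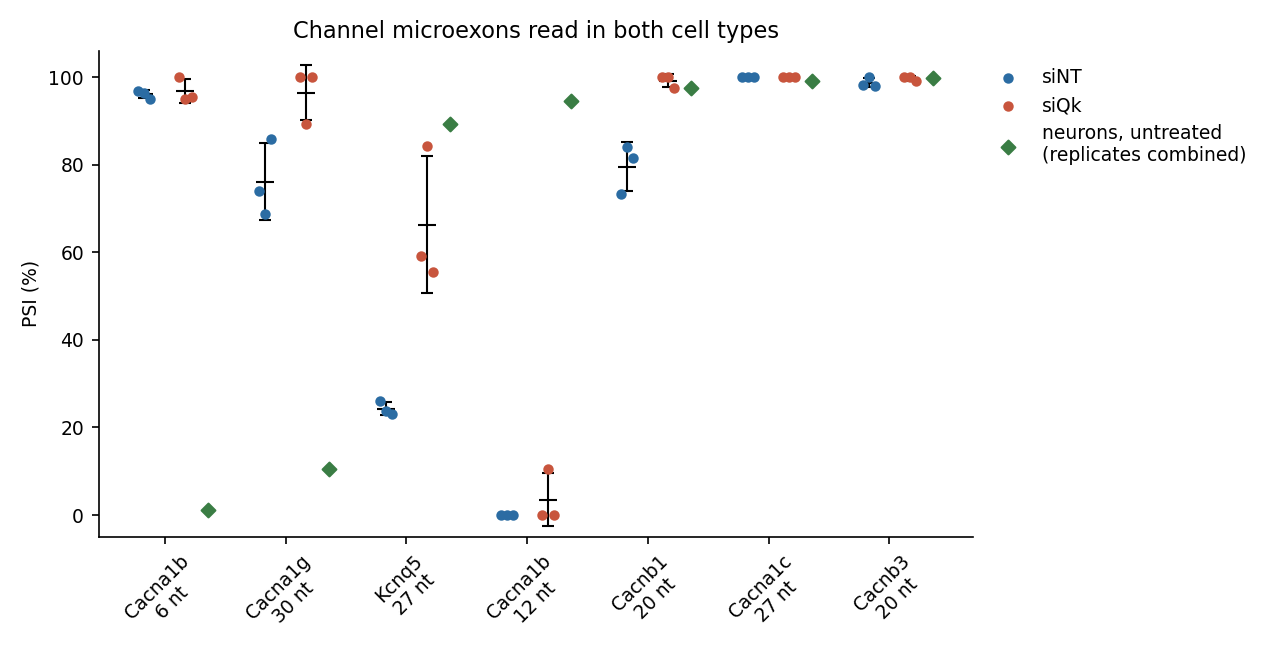
Percent spliced in of channel exons of up to 30 nt read in both cell types. Points are N2A samples with siNT (blue) or siQk (red), bars show the mean ± SD (n = 3 each), and green diamonds are the authors' combined value for untreated neurons. Cacna1b 6 nt and 12 nt lie at opposite ends in the 2 cell types, and the Kcnq5 exon includes siQk replicate 2, with 7 reads. The N2A values of Cacna1g are mostly of a longer form of the exon, by the use of its 3′ splice sites.

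In the neurons, channel microexons were compared with and without translation. Cycloheximide stops ribosomes and with them nonsense-mediated decay, the removal of messages with an early stop codon. The authors' deposited table of 2469 exons of up to 30 nt holds 33 in 23 channel genes. Of these, 13 were above 90% in untreated neurons, 12 were below 10% and 8 were in between. A change was counted at 10 points and a probability of at least 0.9, and 4 of the 33 reached it (12.1%, beside 9.40% of all 2469 rows). Of the 4, 3 were lower and 1 was higher, where 7.17% and 2.23% of all rows were. No p-value can be given, since the replicates were combined by the authors and 2 samples against 2 cannot go below an exact p of 0.33.

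Kcnma1 and Kcnh7 are potassium channels, and Cacnb2 is a paralog of Cacnb1. Their exons were lower with cycloheximide. The 12 nt exon of Kcnma1, the BK channel opened by calcium and voltage, is coding and lies at chr14:23449200-23449211 (minus strand). The 21 nt exon of Kcnh7, of the ERG family, is coding and lies at chr2:62845754-62845774 (minus strand). Both are shown in capitals between 10 nt of each neighbour.
Kcnma1 exon: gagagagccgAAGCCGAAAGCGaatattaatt
Kcnh7 exon: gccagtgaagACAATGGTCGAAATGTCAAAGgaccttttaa
In the authors' deposited table, the Kcnma1 exon stood at 82.3% untreated and 42.3% with cycloheximide (probability 0.998). The Cacnb2 exon of 20 nt stood at 81.5% and 47.8% (probability 0.998), and the Kcnh7 exon at 88.5% and 60.2% (probability 0.955). The Kcnma1 and Kcnh7 exons are multiples of 3, so their skipping alone does not shift the frame, while the 20 nt Cacnb2 exon is not. The 6 nt exon of Cacna1b was the only one of the 4 that was higher, at 1.15% and 13.9% in the authors' deposited table (probability 1.00).

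The values of the other beta subunit exons, whose sequences are printed above, can be set beside that of Cacnb2. By the authors' deposited table, Cacnb3 stood at 99.8% and 99.7%, Cacnb4 at 99.3% and 99.0%, and Cacnb1 at 97.4% and 88.2%. The Cacnb1 difference, -9.23 points at a probability of 1.00, was just short of 10 points. Cacnb2 was thus lowest both before and after treatment, and whether the paralogs differ was not tested.

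Just outside the rule by their probability were 4 potassium channel exons. The authors' deposited table gave a 3 nt exon of Kcnh7 83.1% and 48.0% (probability 0.896), and a 24 nt exon of the same gene 87.3% and 74.6% (0.854). The 21 nt exon of Kcnt2, a potassium channel opened by sodium, was at 92.3% and 74.5% (0.894), and the Kcnq5 exon at 89.3% and 71.5% (0.873). All 4 were lower with the drug. By size, the 9 nt exon of Kcnn1 was outside at 98.7% and 92.2% (0.907). Over all 33 exons, 21 were lower and 12 higher with cycloheximide, with a median difference of -0.291 points beside -0.0610 points over all rows. Among the 8 exons between 10% and 90% before treatment, 3 were counted as changed (37.5%, beside 32.1% of the 521 such rows in all genes).

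**Figure D4:**
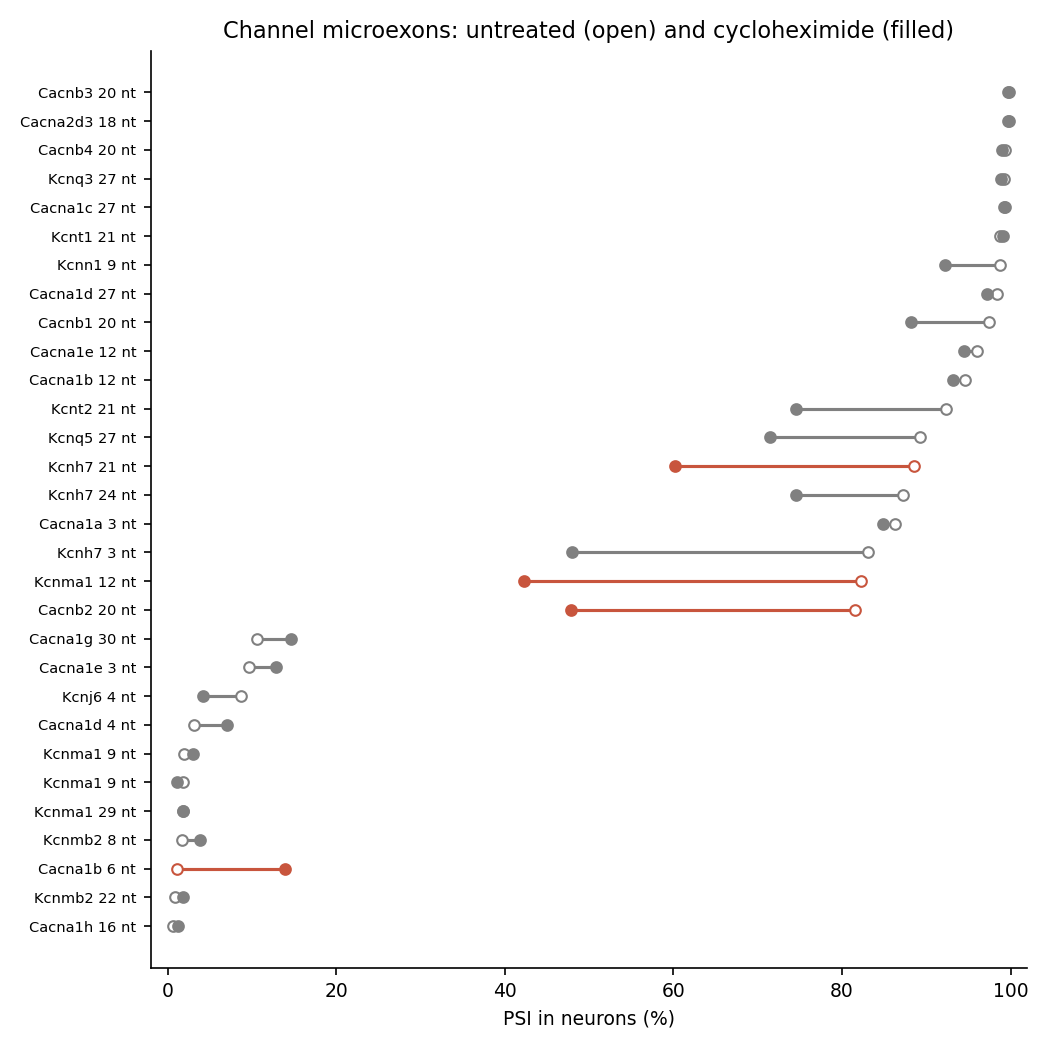
Percent spliced in of 30 of the 33 channel exons in the cycloheximide comparison, in untreated neurons (open circles) and after cycloheximide (filled circles), from the authors' deposited table with replicates combined. Red marks the 4 that differ by at least 10 points with a probability of at least 0.9. The exons of Kcnma1, Cacnb2 and Kcnh7 lie lower after treatment and the 6 nt exon of Cacna1b lies higher.

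Junction coverage, the reads over all exon events of a gene, stood in for expression in N2A cells. Of 115 channel genes with exon events, 44 reached a mean of 20 reads and were tested, and 44 had 0 reads in all samples. Cacnb1 alone passed (1 of 44, beside 4.54% of 10851 genes). Before adjustment, 9 of the 44 had p under 0.05 (20.5%, beside 20.4% of all genes). The median log2 fold change was 0.00 in channel genes and 0.02 in all genes, with 22 channel genes higher and 22 lower.

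Per exon event, which allows for the number of events but only roughly for length, 13 of the 15 channel genes with the highest coverage are given here. Cacng3 and Cacng7 are gamma-family proteins, of which some act on AMPA receptors, and stood at 16 and 12.6 CPM per event over all samples. Kcnh2, the ERG channel of the cardiac repolarising current, stood at 13.4. Next came Cacnb3 at 4.62, Cacnb1 at 4.53, the sodium beta subunit gene Scn3b at 4.49, Cacna1b at 3.82 and the Kv beta subunit gene Kcnab2 at 3.21 CPM per event. The sodium pores Scn9a and Scn8a stood at 2.39 and 2.31, Kcnab1 at 2.36, Cacng4 at 2.32 and the BK subunit gene Kcnmb4 at 1.86. Calcium, sodium and potassium channel genes were all among them, pores and auxiliary subunits alike.

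Of these 13 genes, Kcnh2 came nearest to the threshold after Cacnb1. Its coverage was 214, 219 and 229 CPM in siNT and 184, 184 and 175 CPM in siQk, without overlap (log2 fold change -0.29, SE 0.07, limma adjusted p = 0.0559). Cacng7 went from 81.3 ± 5.32 to 70.3 ± 3.12 CPM (SD, n = 3 each; limma adjusted p = 0.211). Scn8a stood at 63.6, 60.7 and 62.9 CPM in siNT and at 73.9, 70.6 and 70.4 CPM in siQk (limma adjusted p = 0.187). The other 9 had adjusted p between 0.294 and 0.992. Among the lowest log2 fold changes were those of the pore genes Kcnn3, Cacna1h, Cacna1i and Kcnj9, from -0.63 to -0.43, picked after their values were seen, and none passed (limma adjusted p = 0.101 to 0.270).

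**Figure D5:**
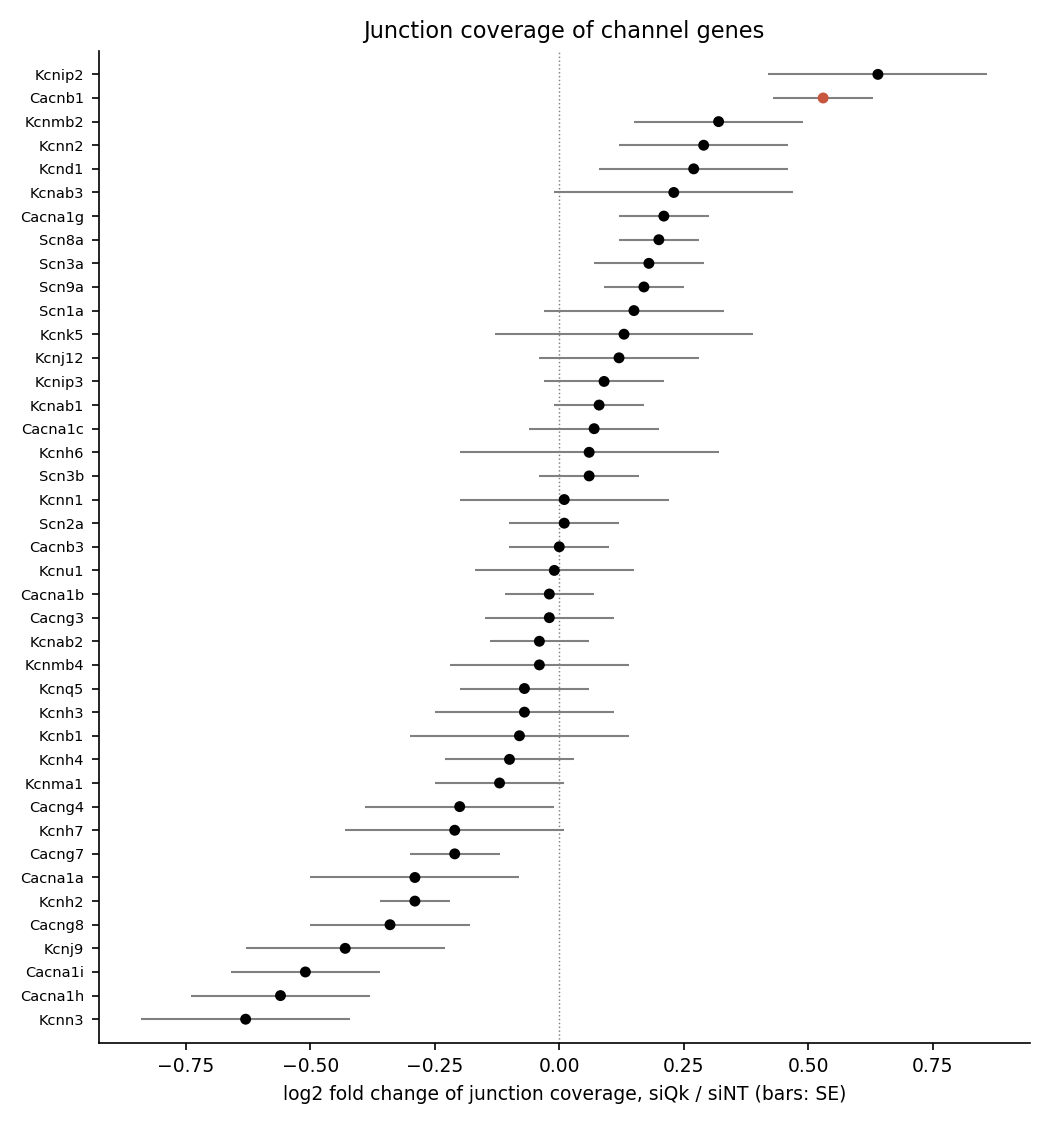
Log2 fold change of junction coverage between siQk and siNT N2A cells for 41 of the 44 tested channel genes, with its SE as bars. Red marks Cacnb1, the gene that passed, at 0.53. Kcnip2, at 0.64, has few reads and did not pass.

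Proteins that anchor or regulate channels were read from a list of 57 partner genes, chosen with earlier results of these data known. Of 117 tested exons in 28 of these genes, 2 passed (1.71%, beside the 1.18% of all cassette exons). A 54 nt exon of Akap9, a scaffold that binds protein kinase A and holds it at the Kv7.1 channel, stood at 72.9%, 65.0% and 61.6% in siNT and at 1.20%, 3.70% and 6.10% in siQk. It fell by 62.8 points (limma adjusted p = 0.000943). A 12 nt exon of Ank2, which encodes ankyrin-B, an adaptor that ties channels to the membrane skeleton, stood at 32.3%, 20.1% and 23.1% in siNT and at 86.2%, 81.5% and 74.9% in siQk. It rose by 55.7 points (limma adjusted p = 0.00102). Both differences were larger than that of any tested channel cassette exon, whose widest was 20.3 points.

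Coverage of 42 partner genes was tested and 2 rose, beside 2.96% of the 10851 genes tested that rose. Calm2, 1 of the genes for calmodulin, the calcium sensor of many channels, went from 85.2 ± 6.85 to 114 ± 4.58 CPM (limma adjusted p = 0.0330). Gem, a small GTP-binding protein that binds calcium channel beta subunits and lowers calcium current, rose to 1.63 times its level of 15.3 ± 2.23 CPM in siNT (SD, n = 3; limma adjusted p = 0.0472).

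The hexamers ACTAAC and ACTAAT were looked up inside the exons, on the transcribed strand only and allowing overlap, since intron sequence was not used here. Of 65 tested channel exons, 53 matched an annotated exon exactly, and 5 of them held a hexamer (9.43%). Among them were 84 nt and 104 nt exons of Cacna1c, a 126 nt exon of Cacna1g and the 155 nt exon of Cacnb1. Of these holders, the 155 nt exon of Cacnb1 alone passed the test for a difference. Whether holding a hexamer goes with a difference was not tested. Among all tested cassette exons with an exact match, 217 of 9727 held one (2.23%), and among those within 25 nt of the length of the long Cacnb1 exon, 34 of 1871 (1.82%). The 20 nt exon of Cacnb1 is not among the holders. This search was chosen after the values were seen, and a match describes letters and not a binding site.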

How the data were processed

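Polyadenylated RNA of 6 N2A samples and 4 neuron samples was sequenced in stranded libraries, per the labels' protocols. The build is mm10 per the submitters' processing notes, and the aligner and splicing software are not given in the sources used here. For N2A cells the authors deposited PSI as a percent per event and sample, and beside it a text cell (another kind of value) holding inclusion and exclusion reads, per the file headers. They also deposited a neural microexon list with PSI of each group as a fraction, and for the neurons a comparison with PSI per condition as a fraction, replicates combined, and a probability of a difference, which is a score between 0 and 1. The column order untreated, then cycloheximide, was read from the table's name. PSI is printed in percent.

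Tested events had 10 or more reads in every N2A sample and a mean PSI between 2 and 98. Inclusion over exclusion reads (0.5 added to both, log2) were compared with limma 3.58.1 in R 4.3.3 (robust, two-sided, variance trend on the sampling variance), over all genes with Benjamini-Hochberg adjustment within each event class. An event passed at adjusted p under 0.05 and at least 10 points. Exon-event reads summed per gene, as log2(CPM + 0.5), were tested the same way where a gene averaged 20 reads or more; a read can count for several events. The cassette exon fit was tried on simulated data with overdispersion matched to the measured spread. The coverage fit was tried on simulated data with a fixed overdispersion, and the intron and splice site fits were not simulated. Exon sequences came from GENCODE M21 transcripts. The channel genes and lists were chosen with earlier results of these data known. Named were all events that passed, the 12 tested exons with the largest differences, the channel rows of the neural list, the counted or matching rows of the neuron table, the 15 genes of highest coverage per event, and partner exons that passed; others are named as nearest the threshold. Alternatives changed the read minimum, PSI filter, tested value, pseudocount, weights, call rule, scaling, replicate block and samples. A few items that the naming rule selects are not reported here.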

Additional observations from a re-analysis of the deposited data

How the results depend on the processing

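Leaving out 1 sample at a time moved the count of changed channel cassette exons between 0 and 2, with 0 without each siNT sample, and that of introns between 1 and 2. Introns came to 0 when PSI itself was tested. Channel genes with changed coverage came to 2 with median-ratio scaling (Cacnb1 and Kcnh2), to 0 with no minimum of reads (Cacnb1 adjusted p = 0.0507), and to between 0 and 4 with 1 sample left out. Partner exons came to 4 with no filter on mean PSI, to 4 with PSI tested and to 4 with 15 points and no p. Cycloheximide rows came to 8 at a probability of 0.8 and to 7 at 5 points. The cause was not tested.

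With the replicate number as a block, 6 channel genes had changed coverage (1 rose and 5 fell, Cacna1h, Cacna1i, Kcnh2 and Kcnn3 among them), and both Cacnb1 exons passed (adjusted p = 0.0386 and 0.0186). The numbers were not taken as pairs, since the labels do not say that a number marks a shared batch. Same-numbered samples deviated together with r of 0.139, 0.0193 and 0.116 over exons and 0.479, -0.136 and 0.48 over coverage. Replicates 1 and 3 of siQk each correlated best with the siNT replicate of the same number. Replicate 2 of siQk correlated best with siNT replicate 3 (0.0451 and 0.493), so these values do not settle the pairing. The planned motif windows in introns were not run, for want of a genome sequence. Read depth limits the microexons, of which 11 of 50 reached 10 reads in every sample.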
